A study of Mus musculus with 24 samples.

Results

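The effect of PXR loss on the liver's response to phenobarbital was examined where CAR was still present, by setting PXR-deficient mice against wild-type (WT) mice, which have both receptors. The arrays were chosen by their titles, which gave 6 PXR-deficient and 6 WT arrays of the 24 in the series. PXR-deficient replicates 1 and 2 were averaged and counted as 1 sample, so 5 PXR-deficient and 6 WT samples of 23 entered the comparison. All mice were males of the strain C57BL/6J. The PXR-deficient mice were 9 to 12 weeks old, and the labels give no age for the WT mice. The labels call the mutants PXR deficient and name neither the allele nor the origin of the line. Each treated mouse had received 100 mg/kg phenobarbital intraperitoneally, and the liver was taken after 12 h. Treated liver RNA was labelled with Cy5 on every array. RNA pooled from 6 livers of mice of the same genotype, injected with vehicle (5% DMSO in corn oil), was labelled with Cy3. The dyes were not swapped. The response is the log2 ratio of Cy5 over Cy3, so a positive response means a higher level after phenobarbital.

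Phenobarbital, a barbiturate, is the classical inducer of hepatic drug metabolism. CAR and PXR are nuclear receptors that bind DNA as heterodimers with RXR and share many target genes, among them cytochromes P450 of the Cyp2b and Cyp3a families, conjugating enzymes and transporters. In mouse liver, phenobarbital is known to move CAR from the cytoplasm to the nucleus through signalling rather than by binding it, whereas PXR is known as a receptor for pregnane steroids, bile acids and many drugs. PXR loss can change a ratio of treated to vehicle liver in either channel, since unstimulated liver may also differ between the genotypes. For this reason each response was set beside the level in treated liver and the level in the vehicle pool.

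The focused array, Sterolgene V1, carried 120 mouse probes in 3 copies, of which 80 passed a brightness filter. The files pair no probe number with a gene. The probes are therefore given by number, and the receptors' transcripts, liver markers and pathways could not be read. The number of probes with an unflagged spot was 46 to 104 on the PXR-deficient arrays and 45 to 120 on the WT arrays. Flagged spots left fewer samples for some tested probes, as few as 1 PXR-deficient and 2 WT. WT replicate 6 had 0 percent of its spots flagged and WT replicate 1 had 6.94, against 53.6 to 66.4 on the other WT arrays. The treated channel had a median of 79 probes above background on PXR-deficient arrays and 53 on WT arrays, and the pool channel 69.5 and 47. Precision is limited by the number of arrays. Nothing in the labels ties a replicate to its own mouse, so the spread between samples may be technical. The p-values draw on that spread within all 4 genotypes, fitted together, and not on PXR-deficient and WT samples alone. In a whole liver, fewer cells of a type and less RNA per cell cannot be told apart. On WT replicate 1 the Cy3 treatment tag names phenobarbital, against a source name and protocol that give the vehicle pool; the channel was read as the pool.

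The arrays did not all stand apart to the same degree. PXR-deficient replicates 1 and 2 differed with a variance 1.04 times that of the scatter between copies of a probe. The variance was 2.19 times for PXR-deficient replicates 3 and 4 and 1.79 times for WT replicates 2 and 6, against 6.79 to 52.9 times for the remaining pairs within these groups. The deviations of WT replicates 2 and 6 from the WT mean correlated at r = 0.95 over 45 probes. Spot coordinates placed odd-numbered PXR-deficient arrays in the upper position of a slide and even-numbered ones in the lower, whereas WT replicates 1 to 5 were upper and WT replicate 6 lower. PXR-deficient replicates 3 and 4, and WT replicates 2 and 6, still entered the main fit as separate samples. Results are therefore given also without WT replicates 2 and 6, with alike pairs counted once and within each position. Which arrays shared a slide is not given by the labels.

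The response differed between PXR-deficient and WT liver for 15 of the 80 probes (18.8%) in a limma fit at an adjusted p under 0.05. It was higher in PXR-deficient liver for 5 probes (6.25%) and lower for 10 (12.5%). The higher responses were led by Mm051 and Mm050, and the lower ones by Mm001 and Mm024. The called differences had a median absolute size of 0.65 on the log2 scale, against 0.32 over all tested probes. In all, 6 exceeded 2-fold, and the smallest was 0.38. The samples of the groups did not overlap for 5 of the 15 called probes, against 10 of all 80 tested (12.5%). The non-overlapping probes that were not called had at most 3 samples in each genotype, where groups separate easily. The mean responses of the 2 genotypes correlated across the 80 probes at r = 0.68, and at r = 0.85 without WT replicates 2 and 6; probes are not independent replicates, and each group's ratios share a pool.

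The count of 15 rested on which arrays entered. It was 6 without both WT replicates 2 and 6, 9 without PXR-deficient replicate 4 and 9 without WT replicate 6. With the 3 alike pairs (PXR-deficient replicates 1 and 2, 3 and 4, and WT replicates 2 and 6) each counted once, 9 passed. With 10 pairs of arrays counted once, which add PXR-deficient replicates 5 and 6 and pairs in the other genotypes, 2 passed. With the 10 pairs as a random block, 10 passed, and the correlation within pairs was 0.42. On upper arrays alone 2 probes passed, and on lower ones 14 passed. The lower WT arm is replicate 6 alone, whose spread is taken from the other groups, so values on lower arrays lend no separate support. Fitting PXR-deficient and WT arrays without the other genotypes left 4 calls. Relative to the calibration spike-ins the median difference over all probes was 0.76 in place of 0.09, with 27 higher calls and 1 lower; the labels list those spike-ins for the Cy5 RNA only. In the authors' deposited value table the median was 0.61, with 7 higher calls and 1 lower. Directions below are therefore relative to the bulk of the probes on an array.

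**Figure D1:**
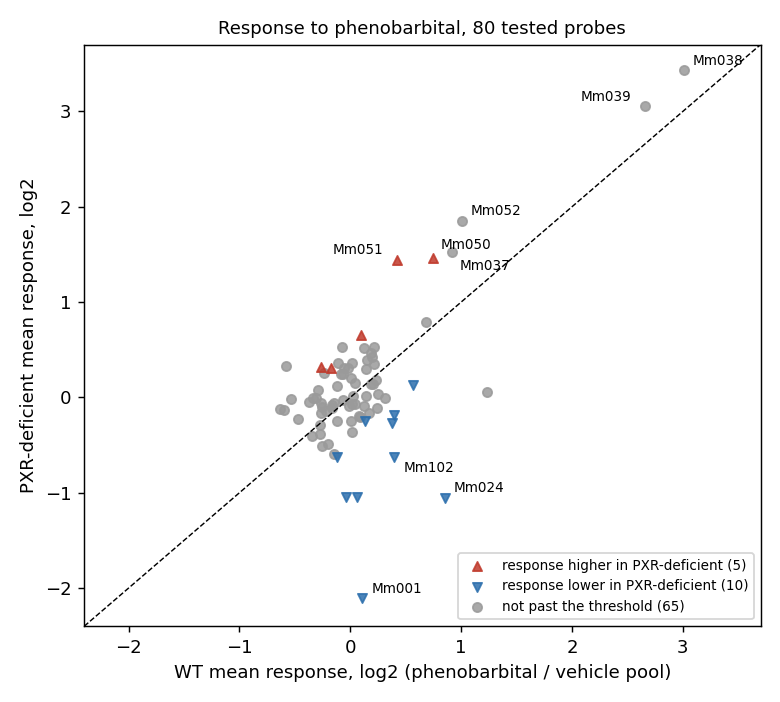
Mean response of each of the 80 tested probes in PXR-deficient liver (vertical axis) against WT liver (horizontal axis), both as log2 of phenobarbital over vehicle pool. Triangles mark the 15 probes whose response differed, and the dashed line marks equal responses; Mm038 and Mm039 lie highest near the line at 3.43 against 3.01 and 3.05 against 2.66, while Mm001 lies far below it at -2.10 against 0.11.

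The strongest responses to phenobarbital were those of Mm038 and Mm039 in both genotypes. Mm038 had responses of 3.34 (replicates 1-2), 4.14, 3.94, 3.15 and 2.60 in PXR-deficient samples, against a lowest of 1.87, a median of 3.06 and a highest of 3.92 in WT samples. Mm039 had responses of 3.20, 3.56, 3.33, 2.86 and 2.32 in PXR-deficient samples, against 1.58, 2.87 and 3.27 as the lowest, median and highest in WT. Every sample of both genotypes lay well above 0, and the groups overlapped for both probes. The difference was 0.42 (95% interval -0.49 to 1.33, adjusted p = 0.490) for Mm038. It was negative with print-tip loess and scale normalization, but higher in PXR-deficient liver past the threshold relative to the spike-ins (1.29, adjusted p = 0.00878) and in the authors' deposited table (1.69, 0.0258). The difference of Mm039 was 0.39 (-0.38 to 1.17, adjusted p = 0.480), negative with scale normalization and on lower arrays. It too passed relative to the spike-ins (1.24, adjusted p = 0.00832), and in the authors' deposited table before (1.79, 0.0258) and after median centring (1.46, 0.00539). These intervals leave room for a difference of 2-fold in either probe, so equal responses were not shown.

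The treated channel gave narrower intervals for this pair, whose pool lay near background. Whether the pool widened the intervals of the ratios was not tested. The pool of Mm038 was above background on 2 of 6 PXR-deficient and 1 of 6 WT arrays, and that of Mm039 on 3 of 6 and 1 of 6, while both were above it on all treated channels. The treated level of Mm038 was 12.32 ± 0.21 (SD, n = 5) in PXR-deficient and 12.42 ± 0.49 (n = 6) in WT liver on the log2 scale. The difference was -0.10 (95% interval -0.56 to 0.37, adjusted p = 0.803). For Mm039 the treated level was 12.37 ± 0.15 (n = 5) in PXR-deficient and 12.13 ± 0.20 (n = 6) in WT liver, a difference of 0.24 (-0.12 to 0.61, adjusted p = 0.359). Neither treated difference passed the test, and both intervals excluded a difference of 2-fold in levels aligned between arrays. That alignment was chosen after the data were seen. The response differences of both probes exceeded 2-fold relative to the spike-ins and in the authors' deposited table. A 2-fold difference was therefore excluded only under this processing.

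Mm051 and Mm050, whose mean response was positive in both genotypes, responded more in PXR-deficient liver. Mm051 had responses of 1.76 (replicates 1-2), 1.52, 1.25, 1.41 and 1.27 in PXR-deficient samples. In WT samples the lowest was -0.41, the median 0.42 and the highest 1.12. All PXR-deficient samples exceeded all WT samples, and 3 of 6 WT samples (replicates 2, 5 and 6) were below 0. The difference was 1.02 (SE 0.22, adjusted p = 0.00291), or 2.02-fold, and 0.69 (adjusted p = 0.0271) without WT replicates 2 and 6. The call was lost with scale normalization (adjusted p = 0.427) and in the fit of only these 2 genotypes (0.0540). It was also lost on upper arrays (0.0799) and with 10 pairs of arrays counted once (0.0863).

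Mm050 had responses of 2.03 (replicates 1-2), 1.72, 1.38, 1.23 and 0.94 in PXR-deficient samples, against a lowest of 0.03, a median of 0.91 and a highest of 1.07 in WT samples. All samples were above 0, and 1 PXR-deficient sample lay within the WT range. The difference was 0.71 (SE 0.21, adjusted p = 0.0173), and 0.80 without WT replicates 2 and 6 (adjusted p = 0.0324). Fitted on only these 2 genotypes the adjusted p was 0.0728, and it was 0.0883 on upper arrays and 0.344 on lower ones. Without PXR-deficient replicates 1 and 2 it was 0.0556, with median centring 0.101 and with 10 pairs of arrays counted once 0.0720. With scale normalization the difference was 0.24 (adjusted p = 0.680).

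For Mm051 and Mm050 the level was higher in PXR-deficient mice in both channels, and by more in the treated channel. Treated levels of Mm051 were 13.50, 13.15, 12.89, 13.20 and 13.17 in PXR-deficient samples, against a lowest of 10.48, a median of 11.94 and a highest of 12.82 in WT. The groups did not overlap, and the difference of 1.42 (SE 0.30, adjusted p = 0.00532) was 2.68-fold. Treated levels of Mm050 were 14.62, 14.54, 14.17, 13.55 and 12.83 in PXR-deficient samples, against 12.37, 12.49 and 12.91 as the lowest, median and highest in WT. Its lowest PXR-deficient sample lay within the WT range, and the difference was 1.36 (SE 0.31, adjusted p = 0.00532). The PXR-deficient pool was higher too, by 0.41 for Mm051 and 0.65 for Mm050, so the ratio shows a smaller contrast than the treated levels do. Readings of the same WT pool ran from 10.84 to 11.91 for Mm051 and from 11.40 to 12.37 for Mm050, which is wider than these differences. Both channels share the brightness of a spot, and whether the larger treated contrast lies in the livers was not tested. Without WT replicates 2 and 6 the treated difference of Mm051 was 0.86 (adjusted p = 0.0190) and that of Mm050 was 1.29 (0.0329). Both treated calls ended when arrays were aligned on unflagged spots alone (adjusted p = 0.0795 for Mm051 and 0.197 for Mm050) and with 10 pairs of arrays counted once (0.121 and 0.0569). That of Mm051 was also lost in the fit of only these 2 genotypes (0.0565) and on upper arrays (0.0827), and that of Mm050 with 3 alike pairs counted once (0.0528) and on lower arrays (0.0791).

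Their numerical neighbour Mm052 was measured in few samples, since most of its spots were flagged. Its responses were 2.03 and 1.68 in 2 PXR-deficient samples and 0.29, 1.29, 2.06 and 0.39 in 4 WT samples, which overlap. Mm037 passed the test in its treated level and not in its response. Its responses were 1.24, 1.59, 2.32, 1.53 and 0.94 in PXR-deficient samples, against 0.05, 0.92 and 1.83 as the lowest, median and highest in WT, a difference of 0.60 (SE 0.25, adjusted p = 0.0923). The groups overlapped, and this difference passed without PXR-deficient replicate 6 (0.75, adjusted p = 0.0464), WT replicate 3 (0.71, 0.0494) or WT replicate 4 (0.79, 0.0156). It also passed relative to the spike-ins (1.65, adjusted p = 0.00160) and in the authors' deposited table before (1.39, 0.0258) and after median centring (0.97, 0.0155). The treated level was 11.91 ± 0.40 (n = 5) in PXR-deficient and 10.89 ± 0.93 (n = 6) in WT liver, which differed by 1.02 (SE 0.31, adjusted p = 0.0305), and the pool differed by 0.42 in the same direction. Without WT replicates 2 and 6 the treated difference was 0.53 (adjusted p = 0.217), and the call was also lost without either of them alone and without PXR-deficient replicate 4 or 5.

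Mm036 differed in another way. Its responses were 0.62 (replicates 1-2), 0.71, 0.89, 0.76 and 0.29 in PXR-deficient samples, against -0.31, 0.06 and 0.58 as the lowest, median and highest in WT. All PXR-deficient samples and 3 of 6 WT samples were above 0, and the groups overlapped. The difference was 0.56 (SE 0.15, adjusted p = 0.0148), and 0.37 (adjusted p = 0.133) without WT replicates 2 and 6. Treated livers were at 12.62 ± 0.22 in PXR-deficient (n = 5) and 12.49 ± 0.27 in WT (n = 6), a difference of 0.13 (SE 0.16, adjusted p = 0.653). The mean pool reading was lower in PXR-deficient liver by 0.43, so most of the difference in ratio lay in the pool readings. Readings of the same WT pool ran from 11.74 to 12.77, which is wider than this difference. Those of the PXR-deficient pool, 11.82 to 12.04, lay within that range. Each genotype has 1 pool, so there is no replicate error. The call was lost under 9 of 34 alternatives, among them upper arrays (adjusted p = 0.168) and the fit of only these 2 genotypes (0.0790). Median centring (0.161) and scale normalization (0.391) also ended it, as did the authors' deposited table before (0.0810) and after median centring (0.0759).

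**Figure D2:**
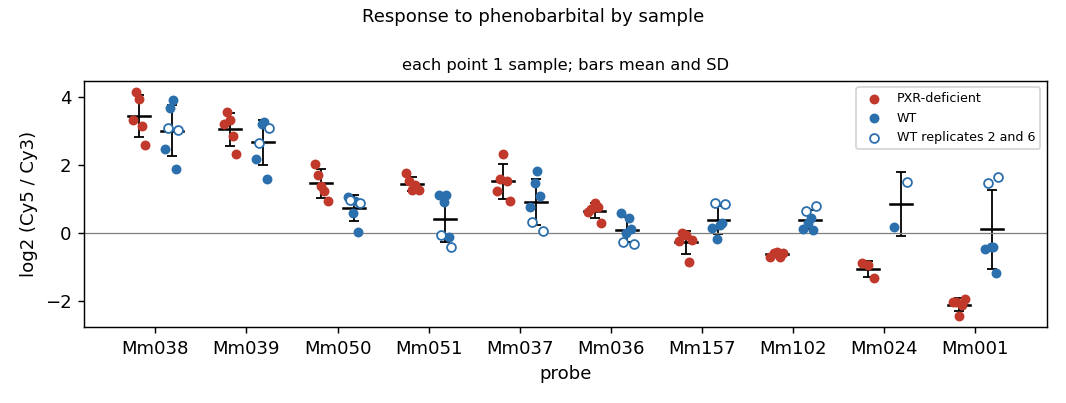
Log2 response (Cy5 over Cy3) of 10 probes in each PXR-deficient sample (red, left) and each WT sample (blue, right), with mean and SD; open circles are WT replicates 2 and 6. The PXR-deficient points of Mm102 cluster between -0.71 and -0.54 below all WT points, and WT replicates 2 and 6 lie apart at 1.48 and 1.64 for Mm001.

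The probe with the largest difference in response was Mm001. Its responses were -2.02 (replicates 1-2), -2.02, -2.44, -2.12 and -1.93 in PXR-deficient samples. WT samples gave -0.46, 1.48, -0.41, -0.41, -1.18 and 1.64 in replicates 1 to 6. All PXR-deficient samples were below all WT samples, and WT replicates 2 and 6 were the only WT samples above 0. The difference was -2.21 (SE 0.35, adjusted p = 8.54e-05), or 4.64-fold, and -1.49 (adjusted p = 1.23e-06) without these 2 samples. On upper arrays it was -1.89 (adjusted p = 0.0153). On lower arrays it was -3.74, a value set against WT replicate 6 alone. The adjusted p stayed under the threshold in all 34 alternatives, the lower arrays included, and reached 0.0400.

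Much of this difference lay in the vehicle pools. The PXR-deficient pool read 11.61, 11.43, 11.84, 11.30 and 11.12 across its arrays, against a lowest of 9.09, a median of 10.09 and a highest of 10.32 for the WT pool. The readings of the pools did not overlap, and they differed by 1.50, or 2.83-fold. Treated levels were 9.59, 9.41, 9.40, 9.18 and 9.19 in PXR-deficient samples and 8.63, 11.80, 9.52, 9.50, 9.06 and 11.89 in WT replicates 1 to 6. The treated difference was -0.71 (SE 0.41, adjusted p = 0.258), and without WT replicates 2 and 6 it was 0.18 (adjusted p = 0.648), while the pool difference was then 1.67. Treated levels of the other 4 WT samples overlapped those of the PXR-deficient samples. Since each genotype has 1 pool of 6 livers, the spread of vehicle-treated mice was not measured and the pool difference has no test.

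Mm102 had responses on opposite sides of 0 in the 2 genotypes, where 0 stands for the bulk of the probes on an array. The dyes were not swapped, and only the difference between genotypes was tested, not the sign within each. Mm102 had the smallest p of all probes and was chosen for description after its values were seen. Its responses were -0.71 (replicates 1-2), -0.59, -0.54, -0.71 and -0.59 in PXR-deficient samples, against 0.10, 0.36 and 0.80 as the lowest, median and highest in WT. All 5 PXR-deficient samples were below 0 and all 6 WT samples above it. The means were -0.63 ± 0.08 (SD, n = 5) in PXR-deficient and 0.40 ± 0.28 (n = 6) in WT liver, a difference of -1.02 (SE 0.13, adjusted p = 4.52e-06). It was -0.87 (adjusted p = 2.37e-05) without WT replicates 2 and 6, -0.97 on upper arrays (0.00120) and -1.42 on lower arrays, where WT replicate 6 stood alone. The call was lost where most probes shifted upwards, relative to the spike-ins (-0.20, adjusted p = 0.590) and in the authors' deposited table (-0.27, 0.650).

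With all samples in, the difference of Mm102 was larger in the treated channel than in the pools. The treated level was 10.52, 10.56, 10.75, 10.35 and 10.23 in PXR-deficient samples, against a lowest of 10.48, a median of 11.27 and a highest of 11.96 in WT samples. The groups overlapped through WT replicate 1. The difference was -0.81 (SE 0.22, adjusted p = 0.0190), against 0.22 in the pools. Without WT replicates 2 and 6 the treated difference was -0.48 (adjusted p = 0.148), and the pool difference 0.39. The 2 parts were then closer in size. The treated call was lost under 8 of 30 alternatives, among them leaving out WT replicate 2 alone (adjusted p = 0.0580) and the fit of only these 2 genotypes (0.118).

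Mm024 and Mm157 had lower responses in PXR-deficient liver with less support. Mm024 gave responses of -0.89 (replicates 1-2), -0.93 and -1.32 in 3 PXR-deficient samples and of 0.19 and 1.51 in WT replicates 1 and 6. The groups did not overlap, and the difference was -1.90 (SE 0.44, adjusted p = 0.0173). It was above background on 2 of 6 PXR-deficient and 3 of 6 WT arrays in the treated channel, and on 4 of 6 and 1 of 6 in the pool. The difference thus rests on 2 WT ratios to a pool near background, and the call was lost on leaving out WT replicate 6 (-1.24, adjusted p = 0.138) or PXR-deficient replicate 4 (-1.76, 0.0528). With the replicate number as a block its difference was -0.87 (adjusted p = 0.123). Mm157 gave -0.24 (replicates 1-2), 0.01, -0.06, -0.86 and -0.21 in PXR-deficient samples, against -0.16, 0.27 and 0.88 as the lowest, median and highest in WT. The groups overlapped, and the difference of -0.65 (SE 0.17, adjusted p = 0.0148) was 0.24 relative to the spike-ins and 0.12 in the authors' deposited table, the opposite sign. It was -0.40 (adjusted p = 0.119) without WT replicates 2 and 6.

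The remaining 8 called responses comprised 2 higher ones, at 0.48 and 0.57, and 6 lower ones, from -1.10 to -0.38. Over all 15, the direction in the channels was regular. Treated liver was lower and the pool higher in PXR-deficient mice for all 10 lower responses, whereas for the 5 higher responses treated liver was higher in all and the pool lower in 3. The response difference is by construction the treated difference minus the pool difference, so these directions describe the calls and do not test them. The pool difference was the larger part for 5 of the 15 called probes and for 39 of all 80.

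**Figure D3:**
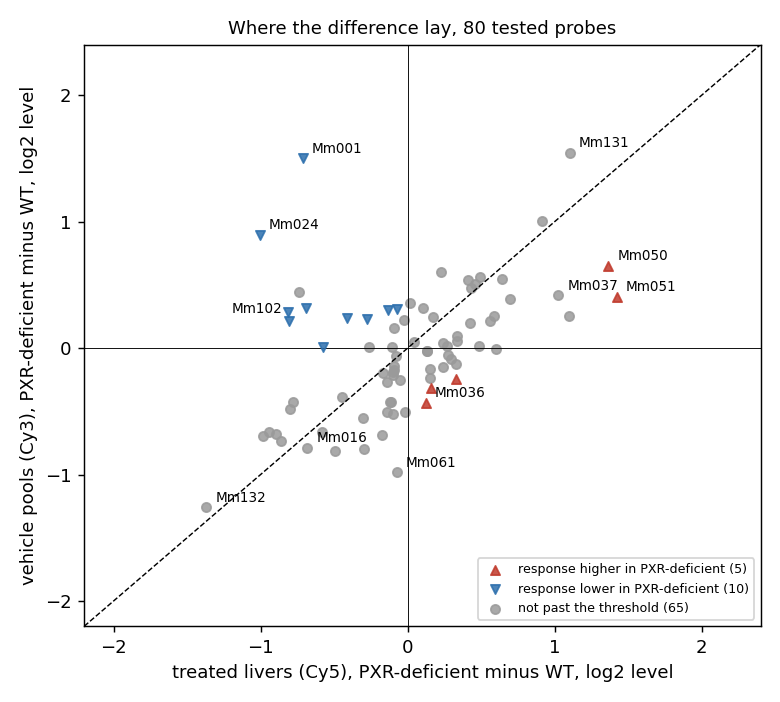
Difference between PXR-deficient and WT log2 levels in the vehicle pools (vertical axis) against that in treated livers (horizontal axis) for the 80 tested probes; distance from the dashed line is the difference in response. Mm001 lies at -0.71 in treated liver and 1.50 in the pool, Mm051 at 1.42 and 0.41, and Mm132 lies close to the line at -1.37 and -1.26.

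Treated livers were then compared directly, since a probe that differs alike in both channels leaves no trace in the ratio. The level after phenobarbital differed for 10 of 80 probes (12.5%). PXR-deficient liver had the higher level for 5 of them (6.25%) and the lower level for 5 (6.25%). In 9 of the 10 the pool differed in the same direction, against 53 of all 80 tested. Both levels of a spot are built from its mean brightness over the channels, so this agreement is partly built in and tests nothing. Only Mm050, Mm051 and Mm102 were called both by response and by treated level. The treated groups did not overlap for 3 of the 10, against 6 of all 80 (7.5%). The pool readings did not overlap for 3 of the 10, against 15 of all 80 (18.8%).

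This count depended more on the arrays and their alignment than that of the responses. It was 4 without PXR-deficient replicate 4, 18 without WT replicate 1, 3 without WT replicate 2, 6 without WT replicate 6 and 4 without both WT replicates 2 and 6. It was 2 on upper arrays and 12 on lower arrays. When only these 2 genotypes were fitted 2 probes passed, and when arrays were aligned on unflagged spots alone limma called 0, with 11 at an unadjusted p under 0.05, against 20 otherwise. Every treated-level call given here was thus lost under that alignment.

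Among the called treated levels, those of Mm132 and Mm073 were lowest relative to WT. Treated levels of Mm132 were 11.26 (replicates 1-2), 9.46, 10.59, 9.82 and 11.11 in PXR-deficient samples, against a lowest of 10.77, a median of 11.74 and a highest of 12.80 in WT. The groups overlapped, and the difference was -1.37 (SE 0.42, adjusted p = 0.0305), or 2.58-fold. The pool differed by -1.26, with readings of 10.47 to 11.34 for the PXR-deficient and 11.74 to 12.54 for the WT pool, which did not overlap. Its responses ran from -1.02 to 0.64 in PXR-deficient and from -1.45 to 0.35 in WT samples, so a level lower in both channels came with overlapping ratios. The treated call was lost without WT replicate 2 (adjusted p = 0.0961), WT replicate 6 (0.0697) or PXR-deficient replicate 3 (0.134), 4 (0.0811) or 5 (0.0929).

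Mm073 was measured in 3 PXR-deficient and 4 WT samples. Its treated levels were 9.50, 8.90 and 8.96 in PXR-deficient samples, against 10.12, 10.53, 9.26 and 10.51 in WT replicates 1, 2, 5 and 6. The groups overlapped through WT replicate 5. The difference was -0.99 (SE 0.31, adjusted p = 0.0332), with a pool difference of -0.69. It was lost under 16 of 30 alternatives, among them leaving out PXR-deficient replicate 3 (adjusted p = 0.145) or 4 (0.129) or WT replicate 2 (0.132) or 6 (0.0894). With the replicate number as a block its adjusted p was 0.0645. The other 4 called levels were 2 higher ones, at 0.64 and 0.70, and 2 lower ones, at -0.90 and -0.86.

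Mm016 passed in neither comparison. Its responses were 0.97 (replicates 1-2), 0.75, 1.21, 0.87 and 0.15 in PXR-deficient samples, against 0.41, 0.69 and 0.93 as the lowest, median and highest in WT. All samples of both genotypes were above 0, and the difference was 0.11 (95% interval -0.37 to 0.58, adjusted p = 0.766), with the opposite sign under print-tip loess and scale normalization. Treated liver was at 11.87 ± 0.32 (n = 5) in PXR-deficient and 12.55 ± 0.50 (n = 6) in WT mice, a difference of -0.68 (SE 0.26, adjusted p = 0.0859), and the pool differed by -0.79. The treated difference passed without WT replicate 1 (-0.86, adjusted p = 0.0182).

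**Figure D4:**
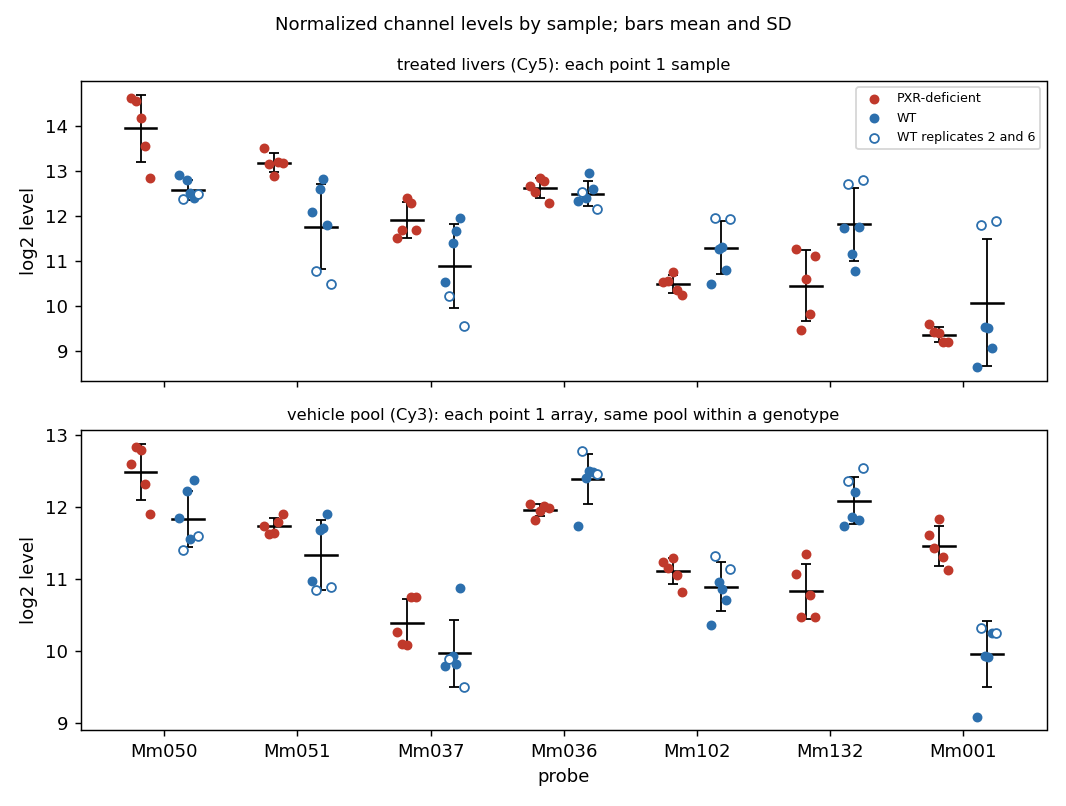
Normalized log2 levels of 7 probes in treated livers (Cy5, upper panel) and vehicle pools (Cy3, lower panel), PXR-deficient in red on the left and WT in blue on the right, with mean and SD; open circles are WT replicates 2 and 6. Pool points within a genotype are readings of the same pool, so their SD is technical, and the points of PXR-deficient replicates 1 and 2 were averaged; the pool readings of Mm001 and Mm132 do not overlap between genotypes.

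The vehicle pools differed most, among the 49 probes above background in both, for Mm131 and Mm001 upwards and for Mm132 and Mm061 downwards. The Mm131 pool read 12.35 to 12.67 for PXR-deficient and 9.40 to 12.74 for WT mice, a mean difference of 1.55. The WT readings come from a single pool, yet they spanned more than this difference, so it is not larger than the technical spread. The Mm061 pool read 9.68 to 10.55 for PXR-deficient and 10.62 to 11.28 for WT mice, without overlap and with a mean difference of -0.98. Its responses were -0.43, 0.47, 0.59, 0.95 and 0.05 in PXR-deficient samples, against -2.11, -0.12 and 0.30 as the lowest, median and highest in WT. The response difference was 0.90 (SE 0.36, adjusted p = 0.0832), and 0.30 without WT replicates 2 and 6, which gave the 2 lowest responses. It passed without WT replicate 4 (1.08, adjusted p = 0.0419) and relative to the spike-ins (1.71, 0.00220), and was 2.18 on lower arrays, against WT replicate 6 alone. Over all tested probes the median SD across readings of the same pool was 0.23 for PXR-deficient and 0.33 for WT arrays.

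Mm062 and Mm054 showed no called difference in response. Mm062 gave responses of -0.14 (replicates 1-2), -0.18, -0.05, -0.77 and 0.02 in PXR-deficient samples, against a lowest of -0.61, a median of -0.50 and a highest of -0.29 in WT. The groups overlapped only through PXR-deficient replicate 5. The difference was 0.24 (SE 0.14, adjusted p = 0.255), and 0.38 without that replicate (adjusted p = 0.0407). It also passed with print-tip loess (0.45, adjusted p = 0.0215) and relative to the spike-ins (1.03, 0.0130). Mm054 had responses of -0.12 to 0.56 in PXR-deficient and of -0.15 to 0.84 in WT samples, which overlapped.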

How the data were processed

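The data were 24 two-colour arrays of mouse liver, 12 of which are described. Per the file headers, the deposited scanner files give each spot's mean intensity and local background in both channels, a flag and the percent of its pixels that were saturated; no source used here names the scanner or software. Besides these, a deposited value table holds the authors' log2 ratios: its columns correlated with the scanner ratios at 0.90 to 0.98 for these arrays, with medians of 0.03 to 0.54 (PXR-deficient) and -0.43 to 0.18 (WT). Its direction was taken from this match; its centring is unknown, and it served as an alternative.

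Background was corrected with normexp (offset 50), and each array was loess-normalized on unflagged probe spots. Flagged spots, 25 to 64.2 percent on PXR-deficient and 0 to 66.4 percent on WT arrays, were left out, and copies averaged. A probe was tested if at least 2 copies exceeded local background by 2 SD in either channel on at least 12 of 24 arrays. All genotypes entered 1 group-means fit in limma 3.58.1 (R 4.3.3) with Benjamini-Hochberg adjustment at 0.05; figures used matplotlib 3.10.9. Channel levels were aligned between arrays (Aquantile) over all probe spots, flagged ones included, and then averaged over unflagged spots. The plan named the same unflagged spots for both steps, and aligning over all spots was chosen after the data were seen: the SD of the same pool across arrays was 0.23 (PXR-deficient) and 0.33 (WT), against 0.47 and 0.82 when aligned on unflagged spots.

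The arrays, probes and lists were chosen with earlier results of these data known. Named were the 2 highest and 2 lowest called probes of each comparison, the 2 largest pool differences each way, the probes that earlier results had singled out, and Mm102, chosen after its values were seen. The gene lists and markers that had been planned could not be tested. The fit was tested on simulated data. Alternatives are given after the results.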

Additional observations from a re-analysis of the deposited data

Results flagged for a closer look

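The response of Mm157 in PXR-deficient replicate 5 was -0.86, far below the -0.24 to 0.01 of the other 4 PXR-deficient samples. The response of Mm062 in the same sample was -0.77, against -0.18 to 0.02 in the others. These were 2 outlying values among 45 sets of samples examined, and chance alone marks about 1 in 20 such sets.

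The response itself differed between PXR-deficient and WT liver in the test of the difference for 7 named probes. It was higher in PXR-deficient liver by 1.02 for Mm051, 0.71 for Mm050 and 0.56 for Mm036. The differences were -2.21 for Mm001, -1.90 for Mm024, -1.02 for Mm102 and -0.65 for Mm157. The call of Mm001 passed in all 34 alternatives and that of Mm102 in 32 of 34; the others passed in 30 (Mm051), 27 (Mm050), 25 (Mm036) and 24 (Mm157) of 34 and in 24 of 33 (Mm024).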

How the results depend on the processing

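The number of called responses, 15, stayed within 1.5 times under the alternatives not named here. It was 6 with median centring, 28 relative to the spike-ins, 4 with scale normalization, 8 in the authors' table, 4 with only PXR-deficient and WT arrays fitted, 9 with 3 alike pairs and 2 with 10 pairs counted once, 6 without both WT replicates 2 and 6, 2 on upper arrays, and 9 to 19 leaving out 1 replicate. Print-tip loess gave 8 higher and 5 lower, and the authors' table after median centring gave 6 higher and 4 lower. The number of called treated levels, 10, was 4 with quantile normalization, 0 with flagged spots left out of the alignment (11 at an unadjusted p under 0.05), 2 with only the 2 genotypes fitted, 2 with 3 alike pairs and 0 with 10 pairs counted once (9 unadjusted), 3 with the 10 pairs as a random block, 4 without both WT replicates 2 and 6, 2 on upper arrays, and 3 to 18 leaving out 1 replicate. Counting or blocking the 10 pairs was added after the data were seen. Differences changed sign for Mm157 (0.24 relative to the spike-ins, 0.12 in the authors' table), Mm038 (-0.15 with print-tip loess, -0.47 with scale normalization), Mm039 (-0.44 with scale normalization, -0.17 on lower arrays; treated level -0.0085 with quantile normalization), Mm016 (-0.16 with print-tip loess, -0.11 with scale normalization) and the treated level of Mm001 (0.18 without both WT replicates). The cause was not tested. Same-numbered arrays had deviations correlating at 5.9e-05 to 0.62, with 1 of 6 arrays in each genotype closest to its own number, so the numbers were not taken as pairs; with the replicate block 13 responses and 8 treated levels passed. Dim probes limit what was seen, as only 80 of 120 passed the filter.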
